A study of Homo sapiens with 9 samples.

Results

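Described here is the response of MDA-MB-231 cells to an siRNA directed at wild-type MTDH, set against untreated control cells, across all genes of an Illumina expression array. It rests on 5 of the 9 samples of the series: 3 siRNA arrays (replicates 1 to 3) and 2 control arrays (replicates 1 and 3), chosen by their labels. The deposited control replicate 2 equalled the mean of the other 2 controls at all 47231 probes and was left out. MDA-MB-231 is an established estrogen receptor-negative line from a breast adenocarcinoma; the siRNA was applied at 200 pmol for 24 h. The labels name no transfection or other siRNA for the controls, so an effect of transfection or of any siRNA cannot be told apart from an effect of lower MTDH. The 3 remaining samples received an siRNA against an MTDH isoform under the same protocol, and serve below as the reference for what differed between siRNAs. The labels do not say whether replicates are separate cultures; p-values therefore reflect the spread among these arrays alone, which could be technical spread.

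MTDH encodes metadherin, a membrane-associated and nuclear protein that is amplified or raised in many breast tumours, binds the nuclease SND1 and has been linked to metastasis, NF-kB activity and drug resistance. An siRNA is a short double-stranded RNA that directs cleavage of a matching messenger RNA. Cells also carry sensors of double-stranded RNA, such as RIG-I (RIGI) and MDA5 (IFIH1), which act through IRF and NF-kB factors on interferon-stimulated genes. Their promoters often hold an interferon-stimulated response element, which IRF and STAT complexes bind.

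Levels are the authors' log2 values, in which a difference of 1 is a 2-fold change, and differences are written as siRNA minus control ± the standard error of the limma fit. A gene passed the test at a Benjamini-Hochberg adjusted p under 0.05 over 22446 probes. On the 5 arrays 20295 to 21761 probes were detected, and precision is limited by how few arrays there are. Of the 9 markers of basal B breast cancer lines 8 were detected on all 5 arrays, among them VIM, CD44 and AXL, and SPARC on none. Their summed signal was 54525 to 56698 in controls and 42679 to 44533 with siRNA. Of the 10 luminal markers 6 were detected on all 5 arrays, KRT8, KRT18, EPCAM and GATA3 among them, and ESR1, PGR, FOXA1 and CDH1 on none; their summed signal was 4291 to 4403 in controls and 4572 to 4979 with siRNA. Of 9 leukocyte markers with a probe CD14, LYZ, CD68, HLA-DRA and CD74 were detected on all 5, and PTPRC, CD3D, CD3E and ITGAM on none (summed signal 4259 to 4380 and 3683 to 3810). In RNA from whole cultures, fewer cells of a kind and less RNA per cell cannot be told apart.

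The targeted gene was lower on every siRNA array. MTDH stood at 10.90 and 10.88 in controls and at 9.81, 9.99 and 10.10 with the wild-type siRNA. The groups did not overlap, and the level with siRNA was 52.7% of control (-0.92 ± 0.08, adjusted p = 2.86e-09). The isoform siRNA gave -0.92 at the same probe, and the difference between siRNAs was 0.00 ± 0.08 (adjusted p = 0.974). Metadherin's partner SND1 stood at 9.88 and 9.89 in controls and at 9.06, 9.10 and 8.99 with the wild-type siRNA (-0.84 ± 0.11, adjusted p = 1.15e-06). SND1 differed between siRNAs (adjusted p = 1.46e-06) and was at -0.06 with the isoform siRNA. Of 14 measured genes for metadherin's partners and reported targets, MTDH included, 9 were lower and 1, the NF-kB subunit RELA (0.51), was higher. Over all genes tested 31.3% were lower and 28.3% higher. MET, a receptor tyrosine kinase, fell by 0.77 on the log2 scale.

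Most genes moved, and most by little. Of 12250 genes 7292 passed the test (59.5%), 3461 higher (28.3%) and 3831 lower (31.3%), and the groups did not overlap at 72.7%. Among those called, 4656 changed by less than 1.5-fold, and the median rise was 0.48 and the median fall -0.46. At least 2-fold changes were fewer, with 412 genes higher (3.36%) and 277 lower (2.26%). At least 4-fold, 35 genes rose and 2 fell. The split depends on scaling. With a background correction and scaling to each array's median, chosen after seeing the data, 1589 genes were higher and 4607 lower, and the median over all genes moved from -0.01 to -0.24. At least 2-fold changes then stood at 423 genes higher and 1356 lower, so that their balance turned over. The authors' values still hold background signal, so changes of dim genes are understated: 93.1% of called probes changed further after background correction with neqc.

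**Figure D1:**
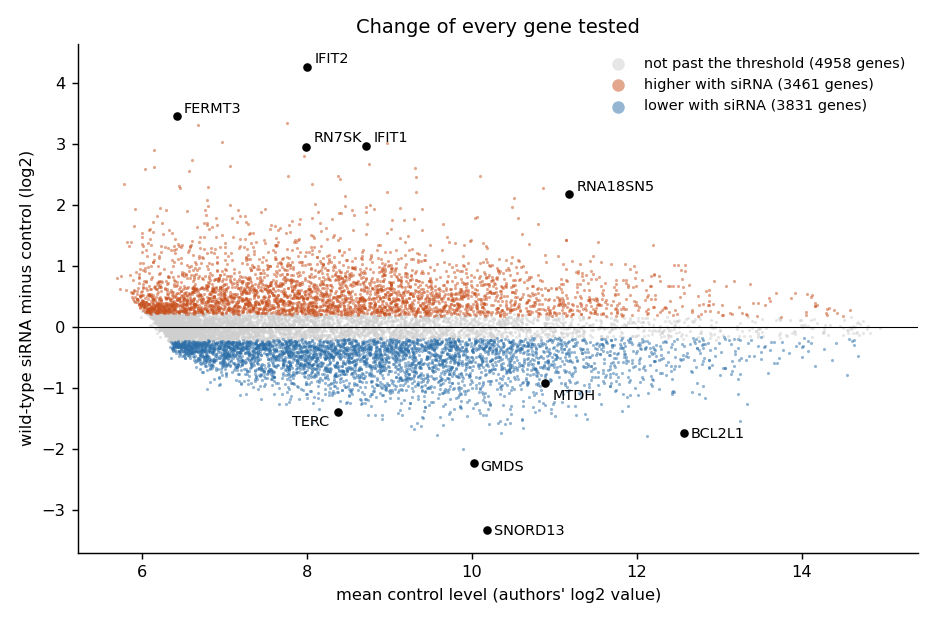
Change of each of 12250 genes (wild-type siRNA minus control, log2, vertical axis) against its mean control level (log2, horizontal axis). Orange points were higher (3461), blue lower (3831) and grey not past the threshold (4958); the largest rises reach past 4, while only SNORD13 and GMDS lie below -2.

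The largest rises were led by antiviral genes. IFIT2 and its neighbours IFIT1 and IFIT3 encode tetratricopeptide proteins that bind viral RNA or associate with proteins that do. The windows of IFIT3 and IFIT1 are shown, IFIT2 and OASL having no entry in the promoter table, from 250 bases before to 50 bases after each start (RefSeq, GRCh38.p14), because these genes rose together, with that of FERMT3 as a large rise that lacks the motif. Capitals mark matches on either strand to GAAANNGAA, a shortened form of the response element; each of these IFIT windows holds 2, which do not overlap, and FERMT3 holds none.
IFIT3, chr10:89327747-89328046, plus strand: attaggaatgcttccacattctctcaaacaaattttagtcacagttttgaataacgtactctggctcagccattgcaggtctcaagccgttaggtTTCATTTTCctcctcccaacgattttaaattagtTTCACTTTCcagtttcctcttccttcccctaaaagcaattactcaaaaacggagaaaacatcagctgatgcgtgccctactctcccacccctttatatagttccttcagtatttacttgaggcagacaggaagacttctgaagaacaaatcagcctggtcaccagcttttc
IFIT1, chr10:89392373-89392672, plus strand: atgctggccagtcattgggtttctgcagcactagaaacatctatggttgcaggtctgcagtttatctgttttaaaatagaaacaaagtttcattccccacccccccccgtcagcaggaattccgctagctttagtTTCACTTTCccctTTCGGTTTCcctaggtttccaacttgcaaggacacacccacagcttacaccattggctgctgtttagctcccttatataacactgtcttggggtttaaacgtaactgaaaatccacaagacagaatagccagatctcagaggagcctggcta
FERMT3, chr11:64206471-64206770, plus strand: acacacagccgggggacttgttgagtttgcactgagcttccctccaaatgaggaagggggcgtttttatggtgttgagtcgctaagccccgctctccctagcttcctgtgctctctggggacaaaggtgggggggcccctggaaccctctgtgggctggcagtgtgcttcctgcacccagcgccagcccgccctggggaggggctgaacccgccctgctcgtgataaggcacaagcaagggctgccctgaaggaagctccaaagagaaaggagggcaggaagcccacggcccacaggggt

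In such windows GAAANNGAA was found in 8.3% of 27305 RefSeq promoters and in 6.6% of the 9770 that belong to genes tested here. It was in 11.4% of the 308 windows of genes that rose at least 2-fold and in 5.7% of the 246 of genes that fell at least 2-fold. Of the interferon-induced effectors with a window, 15 of 18 that rose held it, and 6 of 10 that fell or did not pass. A match is a description of these letters only.

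IFIT2 rose the most of the interferon-induced effectors. It stood at 7.92 and 8.08 in controls and at 12.13, 12.39 and 12.24 with siRNA (4.25 ± 0.09, adjusted p = 2.45e-20), a 19.1-fold rise. IFIT3 stood at 7.81 and 7.70 and then at 11.14, 11.07 and 11.05 (3.34 ± 0.08). IFIT1 stood at 8.71 and 8.73 and then at 11.66, 11.67 and 11.71 (2.96 ± 0.07). OASL, an oligoadenylate synthetase-like protein that enhances RIG-I signalling, went from 6.70 and 6.66 to 9.94, 9.99 and 10.01 (3.30 ± 0.08). Each siRNA array lay above both controls at these genes, which the choice of the largest rises required. All 4 rose less with the isoform siRNA (IFIT2 2.76, IFIT3 2.55, IFIT1 2.25, OASL 2.65), and the difference between siRNAs passed the test at each (largest adjusted p 5.53e-08). The share of all genes that differed between siRNAs was 43.3%, and these 4 were picked for the size of their rise with the wild-type siRNA, so their smaller rise with the other siRNA is given as a description. Other probes of IFIT3, OASL and IFIT1 also rose on average, between 0.78 and 2.52.

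The members of the pathway did not move as one. Of 34 measured interferon-induced effectors 23 rose and 3 fell, with a median of 0.49 against -0.01 over all genes. ISG15, a ubiquitin-like modifier, rose by 2.28, its ligase HERC5 by 1.33 and the exonuclease ISG20 by 1.60. The membrane protein IFITM3, which blocks virus entry, rose by 1.07. OAS1, GBP2 and SAMD9L fell by 0.27, 0.47 and 0.24 on the log2 scale. RSAD2 (0.16), IFI44L (0.00) and OAS3 (-0.16) did not pass. Of 15 measured RNA sensors and adaptors 6 rose, 4 fell and 5 did not pass (median 0.06). The genes of this list named here are among the risen. Among the sensors MDA5 (IFIH1) went from 7.28 and 7.05 to 9.02, 8.92 and 9.31 (1.92 ± 0.10, adjusted p = 4.38e-13), and RIG-I (RIGI) rose by 0.79. The adaptor STING1 rose by 1.82 and the kinase TBK1 by 0.79.

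The interferon receptors and their kinases moved the other way more often. Of 7 measured, 5 fell and 2 rose; the receptor chains IFNAR1 and IFNAR2 fell by 0.35 and 0.64 on the log2 scale, and the kinase JAK1 fell by 0.51. The tyrosine phosphatase PTPN11, which limits STAT signalling, fell by 1.27 (adjusted p = 1.73e-11). The transcription factors IRF7, IRF9 and IRF3 rose by 0.95, 0.88 and 0.62. The probes of the ligands IFNB1, IFNL2 and IFNL3 were detected on none of the 5 arrays, and IFNL1 (-0.14) did not pass. For antigen presentation by MHC class I, 11 of 18 genes rose and 1 fell (median 0.36, and 0.03 after background correction and median scaling). The heavy chains HLA-F, HLA-E and HLA-B rose by 0.80, 0.72 and 0.63, and the immunoproteasome subunit PSMB8 by 0.85. HLA-E and HLA-B missed the threshold under that scaling (0.35 and 0.26, adjusted p = 0.0799 and 0.18).

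Other large rises were of genes known for other roles. FERMT3 encodes kindlin-3, an integrin activator known from blood cells. It stood at 6.39 and 6.43 in controls and at 9.79, 9.89 and 9.90 with siRNA (3.45 ± 0.09, adjusted p = 3.00e-19), and its other probe rose by 2.64. With the isoform siRNA FERMT3 was at 0.70, and the difference between siRNAs of -2.74 passed the test (adjusted p = 1.25e-17). The near-identical forkhead genes FOXD4L1 (3.03) and FOXD4 (2.64) rose together; they are close copies, and their probes may read the same transcripts. ANGPTL4, a secreted inhibitor of lipoprotein lipase, went from 7.91 and 8.01 to 10.73, 10.68 and 10.87 (2.80 ± 0.08), with rises of 0.64 and 0.73 at its other probes. It rose further with the isoform siRNA (3.35, adjusted p of the difference 1.17e-06). EID3, a subunit of the SMC5-SMC6 complex, rose by 2.74 and the glycolytic aldolase ALDOC by 2.47. The difference between siRNAs passed the test at all 15 of the largest rises and at 14 of the 15 largest falls. These genes were picked on the wild-type siRNA arrays, which that comparison shares, so the counts are a description only. Differences between siRNAs at list members named below are read in the same way, beside the 43.3% of all genes that differed.

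**Figure D2:**
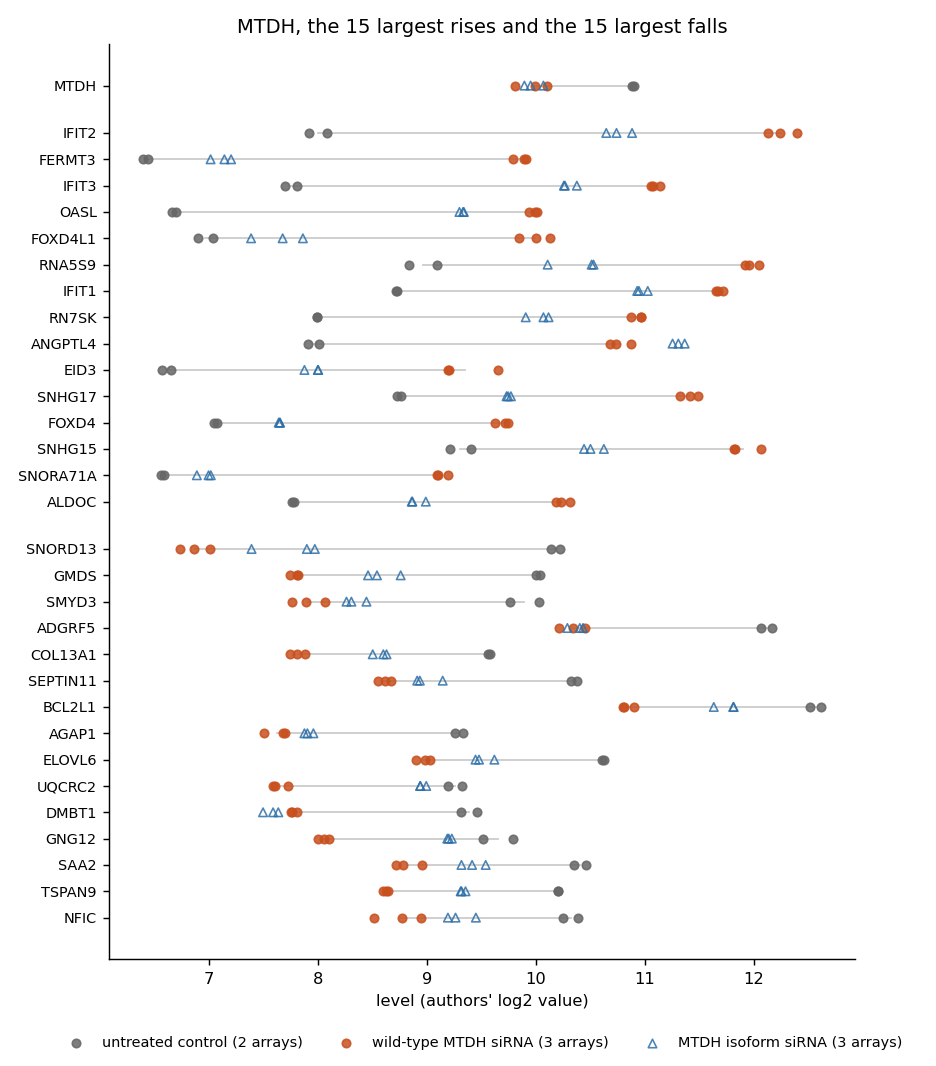
Level (authors' log2 value, horizontal axis) on each array of MTDH, of the 15 largest rises and of the 15 largest falls among genes detected on all 5 arrays. Grey points are the 2 controls, orange points the 3 wild-type siRNA arrays and open blue triangles the 3 isoform siRNA arrays; at IFIT2 the wild-type arrays lie between 12.13 and 12.39 and the controls at 7.92 and 8.08, and at MTDH the 2 siRNAs overlap.

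Some genes were detected only after siRNA. In all, 242 genes were detected on no control array and on all 3 siRNA arrays, and 197 of these were called higher. These genes were kept through their siRNA arrays alone. The direction of a call thus follows from that choice, and its adjusted p adds no support. Their folds are bounds, set against the lowest level of a detected probe or the gene's own level where that was higher. ACTA1, the skeletal muscle alpha-actin, stood at 6.06 and 6.23 in controls and at 8.91, 9.03 and 9.16 with siRNA, at least 6.65-fold higher (adjusted p = 7.22e-17). Of 10 skeletal muscle markers only TNNT1 was detected on all arrays, and MYH2, MYH7, CKM, MYOD1, DES and TTN on none. LHX3, a homeobox factor of pituitary development, was at least 5.50-fold higher and LAT, an adaptor of T-cell receptor signalling, at least 4.99-fold. The other probes of LAT rose by 0.28 to 1.91. BRD8, a bromodomain subunit of an acetyltransferase complex, was at least 3.52-fold higher. Conversely 274 genes were detected on both controls and on no siRNA array, of which 200 were called lower, a direction that likewise follows from the choice. Here the bounds were small, from 1.92-fold for SCARNA14 and 1.84-fold for the kinase RPS6KA2 to 1.54-fold for CGNL1.

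The fall of the largest size was that of a small RNA. SNORD13, a box C/D small nucleolar RNA that guides acetylation of 18S ribosomal RNA, stood at 10.14 and 10.22 in controls and at 6.73, 6.86 and 7.00 with siRNA (-3.32 ± 0.12, adjusted p = 3.92e-16). GMDS makes GDP-fucose, the donor of fucosylation; it stood at 10.04 and 10.00 and then at 7.82, 7.80 and 7.74 (-2.23 ± 0.09). SMYD3, a lysine methyltransferase, stood at 10.02 and 9.77 and then at 8.07, 7.76 and 7.89 (-1.99 ± 0.10). All siRNA arrays lay below the controls at these genes, which the choice of the largest falls required. BCL2L1, which encodes the survival protein BCL-XL, went from 12.62 and 12.52 to 10.90, 10.80 and 10.81 (-1.73 ± 0.08, adjusted p = 7.45e-15), and its other probe fell by 1.62. The isoform siRNA lowered BCL2L1 by less (-0.82, adjusted p of the difference 2.49e-10). UQCRC2, a core subunit of respiratory complex III, fell by 1.62 with the wild-type siRNA and was at -0.30 with the isoform siRNA (adjusted p of the difference 2.25e-12). ADGRF5, an adhesion receptor, fell by 1.79 and stood at -1.75 with the isoform siRNA, a difference that did not pass (0.04, adjusted p = 0.71). The other falls among the 15 were COL13A1, a transmembrane collagen, SEPTIN11, AGAP1, ELOVL6, a fatty acid elongase, DMBT1, GNG12, SAA2, TSPAN9 and NFIC, from -1.76 to -1.58.

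The direction of change moved with the genomic length of the gene. Span here is the distance from start to end of the RefSeq gene, introns included, for 11474 protein-coding genes. Of genes under 5 kb 35.0% were higher and 21.9% lower; of genes of 200 to 400 kb 6.5% were higher and 62.9% lower. Between these bins the share lower was 22.4%, 25.4%, 27.9%, 37.0% and 51.0% with each step in span, and it was 61.3% at 400 kb and over. The median difference went from 0.06 under 5 kb to -0.39 at 200 to 400 kb and -0.38 beyond. Genes that fell at least 2-fold had a median span of 105.5 kb (270 genes), those that rose at least 2-fold 15.4 kb (370 genes), and all protein-coding genes 28.9 kb. Genes of at least 200 kb made up 28.1% of the falls, 0.5% of the rises and 6.2% of all.

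The same held array by array. The median level of the 712 genes of at least 200 kb, minus that of the 4482 genes under 20 kb, was -0.60 and -0.64 on the controls. It was -1.25, -1.25 and -1.28 on the wild-type siRNA arrays and -1.019, -1.044 and -0.999 on the isoform siRNA arrays. The 3 groups did not overlap, and the wild-type siRNA lay farthest from control. In the comparison of the siRNAs, which uses no control, 294 of the 712 long genes were higher with the isoform siRNA and 30 lower; of the 4482 short genes 854 were higher and 1079 lower.

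**Figure D3:**
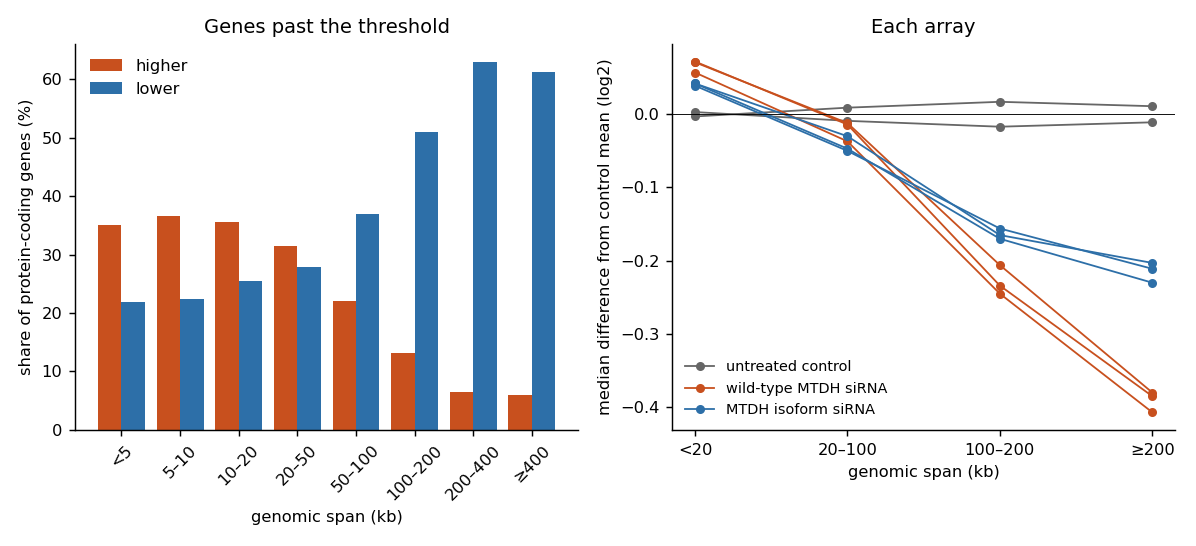
Left, share of protein-coding genes (%, vertical axis) that were higher (orange) or lower (blue) with the wild-type siRNA by genomic span (kb). Right, for each array, the median over genes of the difference from the mean of the 2 controls (log2) by span; the 2 controls stay within 0.02 of 0, while the wild-type arrays reach -0.38 to -0.41 and the isoform arrays -0.20 to -0.23 at 200 kb and over.

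Long genes also lay lower in control level (median 7.61 at 200 to 400 kb, 8.08 under 5 kb), so the shares were counted separately in equal groups of genes by control level. In the group with the highest level, 116 of 139 genes of at least 200 kb were lower and 5 higher (median -0.82), against 584 lower and 556 higher of 1650 under 20 kb (median -0.01). In the middle group 212 of 276 long genes were lower (median -0.55), and in the lowest group 117 of 297 (median -0.14). GMDS (621.8 kb), SMYD3 (757.9 kb), AGAP1 (637.8 kb) and TSPAN9 (209.2 kb) are among the 15 largest falls. FARS2, a mitochondrial phenylalanyl-tRNA synthetase of 521.6 kb chosen after its values were seen, went from 9.34 and 9.44 to 8.02, 7.86 and 7.89. Of the long genes only KDM6A and MGST1 rose at least 2-fold, and both are named for that reason. KDM6A, an H3K27 demethylase of 239.6 kb, went from 7.59 and 7.93 to 8.98, 8.98 and 8.73 (1.14 ± 0.10), and MGST1, a microsomal glutathione transferase of 246.2 kb, from 10.79 and 10.998 to 11.91, 12.03 and 11.94 (1.06 ± 0.08).

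Some classes of small noncoding RNA were higher at every measured gene and others were not. The labelling kit is made for messenger RNA, so a probe for a small RNA reads only what of that RNA, or of a longer transcript that holds it, was amplified. RN7SK, the 7SK RNA that holds the elongation factor P-TEFb inactive, stood at 7.99 and 7.99 in controls and at 10.96, 10.87 and 10.96 with siRNA (2.94 ± 0.08, adjusted p = 1.44e-18), and its other probe rose by 2.81. All 13 RNAs of the RefSeq type snRNA rose, with a median of 1.17 and the least at RNU11 (0.44). The U1 gene RNU1-3 rose by 1.44, U5 (RNU5A-1) by 1.64, U4 (RNU4-1) by 1.17 and U6 (RNU6-1) by 0.67. These are the RNA cores of the spliceosome. U1, U4, U5 and U6 have multiple near-identical gene copies, so a probe may sum several.

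Products of RNA polymerase III were among the risen. The 5S ribosomal RNA gene RNA5S9 went from 8.84 and 9.09 to 11.95, 11.92 and 12.05 (3.01 ± 0.10, adjusted p = 8.20e-17). All 3 vault RNAs rose, VTRNA1-1 by 2.28, VTRNA2-1 by 1.71 and VTRNA1-2 by 1.04. All 4 Y RNAs rose, from 0.54 at RNY1 to 1.78 at RNY5. RMRP and RPPH1, the RNA parts of the RNase MRP and RNase P enzymes, rose by 1.06 and 0.52, and RN7SL1, the RNA of the signal recognition particle, by 0.36. The 18S ribosomal RNA gene RNA18SN5, a product of RNA polymerase I, rose by 2.17. RNA28SN5 had probes of opposite call, its brighter one at 0.23 and its dimmer one at -0.24 (adjusted p = 0.00639 and 0.00759). TERC, the RNA template of telomerase, fell from 8.22 and 8.54 to 7.04, 7.03 and 6.92 (-1.38 ± 0.10, adjusted p = 2.69e-11). With the isoform siRNA RNY5 was at -0.20 and RMRP at -0.01, and both differed between siRNAs (adjusted p = 1.65e-14 and 1.08e-09).

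**Figure D4:**
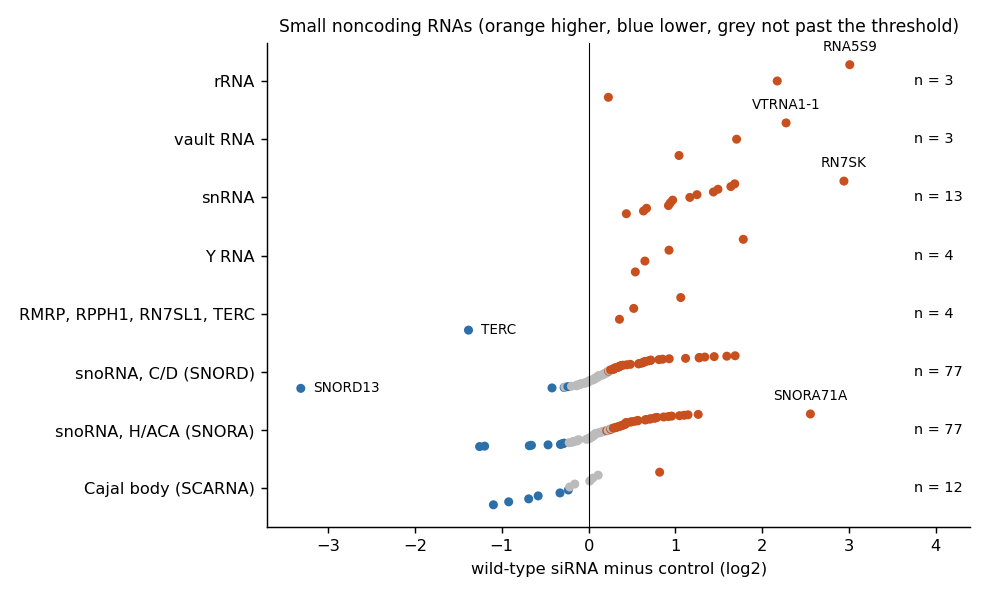
Difference (wild-type siRNA minus control, log2, horizontal axis) of each small noncoding RNA at its brightest probe, by class. Orange points were higher, blue lower and grey not past the threshold; the points of rRNA (3), vault RNA (3), snRNA (13) and Y RNA (4) lie to the right of 0, while TERC and SNORD13 lie at -1.38 and -3.32.

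Small nucleolar RNAs, which guide modification of ribosomal RNA, moved both ways within each family. Of 77 box C/D members 35 rose and 4 fell (median 0.21), and of 77 H/ACA members 37 rose and 9 fell (median 0.23). Of 12 Cajal body RNAs, which guide modification of snRNAs, 1 rose and 6 fell (median -0.23, but 0.03 over those detected on all 5 arrays). SNORA71A rose by 2.56 together with SNHG17 (2.66), the gene that contains it. SNHG15, another host gene, rose by 2.60, SNHG1 by 1.68 and SNHG7 by 1.52. Small RNAs and the genes that contain them often differed in call. A gene was taken to contain a small RNA by position alone, without regard to strand. Over 129 small RNAs that lie inside 1 of 87 measured genes, of which 36 were higher and 26 lower, 55 rose: 29 in a gene that rose, 9 in one that fell and 17 in one that did not pass. Of 15 that fell, 7 lay in a gene that fell and 4 in one that rose. A further 32 did not pass inside a gene that rose, such as SNORA9 (-0.02) inside SNHG15. SNORD139 rose by 1.59 inside the ribosomal protein gene RPL3, which was at -0.42 and lower, and SNORA12 fell by 1.20 inside CWF19L1, which rose by 0.50. A probe for a small RNA can also read the unspliced host transcript.

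Zinc-finger genes of the ZNF family rose more often than genes at large: 170 of 372 were higher and 53 lower, with a median of 0.16 (0.07 after background correction and median scaling). Of 36 replication-dependent histones 10 were higher and 9 lower, beside 28.3% and 31.3% over all genes. Among enzymes that modify histones 8 of 13 demethylases were higher and 1 lower (median 0.33), and of 27 methyltransferases 7 were higher and 8 lower. KDM3A, an H3K9 demethylase, went from 7.91 and 7.88 to 9.37, 9.23 and 9.34 (1.42 ± 0.09, adjusted p = 2.83e-12). SIRT7, a nucleolar deacetylase, rose by 1.37.

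Stress-response lists differed in how many of their genes rose. Of 26 measured genes of the amino acid response, which ATF4 drives when tRNAs are uncharged or eIF2 is phosphorylated, 15 rose, 4 fell and 7 did not pass (median 0.37, and 0.21 after background correction and median scaling). ASNS, asparagine synthetase, went from 8.58 and 8.49 to 10.52, 10.42 and 10.40 (1.91 ± 0.08, adjusted p = 1.43e-15). The phosphatase subunit PPP1R15A rose by 1.78, the transporter chain SLC3A2 by 1.81 and the transcription factor DDIT3 by 1.61. DDIT3 was higher still with the isoform siRNA (1.92, adjusted p of the difference 0.00131), whereas ASNS was much less raised (0.42, adjusted p 9.01e-14). Of 23 cytosolic chaperones 14 rose and 3 fell (median 0.42, and 0.08 under that scaling), among the risen HSPA1B (1.04), DNAJB1 (0.88) and the HSP90 cochaperone CHORDC1 (1.25). Folding genes of the endoplasmic reticulum did not share this, with 4 of 19 higher and 4 lower. Of the 14 chaperones and oxidoreductases among them 4 were higher and 1 lower. Of the 5 sensors or factors 3 were lower, and the sensor ATF6 fell by 1.01. Of 24 AP-1 and other early-response factors 15 rose and 2 fell (median 0.45, and 0.21 under that scaling): EGR1 rose by 1.91, ATF3 by 1.54 and KLF4 by 1.46. In the NF-kB pathway 8 of 22 rose and 6 fell, beside 28.3% and 31.3% over all genes. The inhibitor TNFAIP3 (A20), itself an NF-kB target, went from 6.78 and 6.79 to 8.88, 8.89 and 8.83 (2.08 ± 0.08, adjusted p = 7.90e-16), and the subunit RELB rose by 1.04 while NFKB1 fell by 0.55.

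Genes that act on messenger RNA and on the ribosome rose in part. Of 34 genes for mRNA decay and AU-rich element binding 19 rose and 7 fell (median 0.28, and 0.08 after background correction and median scaling). UPF1, the helicase of nonsense-mediated decay, went from 8.35 and 8.44 to 9.86, 9.86 and 9.84 (1.46 ± 0.08, adjusted p = 3.10e-13), and the decapping factor PATL1 rose by 1.08. The deadenylase CNOT7 fell by 0.97 and the exosome subunit EXOSC3 by 0.92. Of 34 translation initiation factors 17 rose and 8 fell, with a median of 0.17 that became -0.16 under that scaling. The median over all genes was then -0.24. EIF2S2, the beta subunit of eIF2, rose by 1.93, EIF5 by 1.41 and EIF4A2 by 1.35. Of 6 listed activators of the circadian clock 3 were measured, and CLOCK, NPAS2 and BMAL1 were lower (-1.17, -0.48 and -0.27). Of 10 measured clock repressors and outputs 5 rose and 5 did not pass, with CRY2 (1.21) and PER2 (1.14) highest. CLOCK and PER2 had a dimmer probe of the opposite sign (0.17 and -0.04).

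Genes of adhesion, matrix and growth signalling fell more often than they rose. Counts here and in the paragraphs on YAP and PI3K genes stand beside shares over all genes of 28.3% higher and 31.3% lower. These lists were not set beside genes of like span, and a part of span in this was not tested. After background correction and median scaling the median over all genes moved from -0.01 to -0.24, and the list medians given here also lay lower. They then stood at -0.54 for integrin and focal adhesion genes and -0.65 for collagens. For YAP and TEAD genes the value was -0.68, for PI3K genes -0.53 and for the cell cycle genes -0.66. Of 35 integrin and focal adhesion genes 17 fell and 6 rose (median -0.20), in the company of FERMT3 as the largest rise. PTK2, focal adhesion kinase, went from 11.90 and 11.86 to 10.81, 10.79 and 10.59 (-1.15 ± 0.08, adjusted p = 1.99e-11). The adaptor LIMS1 fell by 1.25 and zyxin (ZYX) by 1.04. Of 16 collagens 10 fell and 3 rose (median -0.31), with COL13A1 at -1.76, COL8A1 at -0.87 and COL6A2 at 0.47. The laminin chains LAMB1 and LAMC1 fell by 0.84 and 0.61, and LAMB3 rose by 0.77, though its dimmest probe was at -0.19.

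YAP and TEAD are the transcriptional arm of the Hippo pathway. Of 24 measured genes 13 fell and 3 rose (median -0.32). YAP1 itself fell by 0.70, and so did 6 of its 8 listed targets, among them CRIM1 (-0.997), NT5E (-0.80) and ANKRD1 (-0.68). CCN1 was the exception, going from 12.44 and 12.57 to 13.47, 13.51 and 13.57 (1.01 ± 0.08). The Hippo kinases STK3 and STK4, which restrain YAP, fell by 0.91 and 0.76. CRIM1 was at -0.07 with the isoform siRNA and differed between siRNAs (adjusted p = 7.62e-09).

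Of 26 genes of the PI3K, AKT and mTOR pathway 13 fell and 3 rose (median -0.20). Of the 16 listed as kinases and subunits 10 fell and 6 did not pass. Of the 10 listed as inhibitors or outputs 3 rose and 3 fell; the inhibitor TSC1 rose by 1.04 and SGK1, a kinase counted there as an output, by 1.05. TSC1 was at -0.17 with the isoform siRNA (adjusted p of the difference 1.87e-11). Among receptor tyrosine kinases and their ligands 11 of 26 fell and 5 rose, beside 31.3% and 28.3% over all genes. Examples were the ligands PDGFC (-1.35) and TGFA (-1.44) and the receptor ROR1 (-0.99). In the Notch pathway 5 of 16 genes rose, 6 fell and 5 did not pass (median -0.04). Its DNA-binding factor RBPJ fell from 9.82 and 9.63 to 8.24, 8.14 and 8.53 (-1.42 ± 0.10). In the TGF-beta and BMP pathway 4 of 26 genes rose, 10 fell and 12 did not pass (median -0.02). SMAD5 fell by 1.06 and the receptor TGFBR2 by 0.70, and the target ID2 rose by 0.95. Of 16 cyclins, their kinases and inhibitors 10 fell and 1, the inhibitor CDKN2D (0.98), rose (median -0.30). CCND1 fell from 13.08 and 12.95 to 12.29, 12.26 and 12.13, CDK6 by 0.92 and CDKN3 by 1.26.

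Glycan and metabolic genes were mixed, and their counts stand beside shares over all genes of 28.3% higher and 31.3% lower. Of 32 genes for nucleotide sugars and glycans 12 fell and 5 rose; beside GMDS, the core fucosyltransferase FUT8 fell by 1.19 and the branching enzyme MGAT5 by 1.01. Of 22 glycolytic genes 12 rose and 6 fell, with a median of 0.21 that was -0.14 after background correction and median scaling. The median over all genes under that scaling was -0.24. ALDOC rose by 2.47 and ENO2 by 0.57, while the glucose transporter SLC2A1 fell by 1.12 and LDHB by 0.86. In mitochondrial carbon metabolism 12 of 35 rose and 12 fell; CPT1B rose by 1.39 and HADH, of the same fatty acid pathway, fell by 1.07. Of 44 DNA repair genes 11 rose and 14 fell, close to the shares over all genes. The largest of these falls was that of RNASEH2B (-1.36), whose product removes ribonucleotides from DNA. Among cullin ubiquitin ligases RBX1, their shared RING subunit, fell from 11.56 and 11.57 to 10.25, 10.28 and 10.38 (-1.26 ± 0.07, adjusted p = 8.11e-13), and the adaptor KEAP1 rose by 1.01. RBX1 was at -0.11 with the isoform siRNA (adjusted p of the difference 2.26e-12). Of 23 nucleoporins 11 rose and 4 fell, while 8 of 16 transport factors fell and 6 rose; the exporter XPO1 rose by 0.82.

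**Figure D5:**
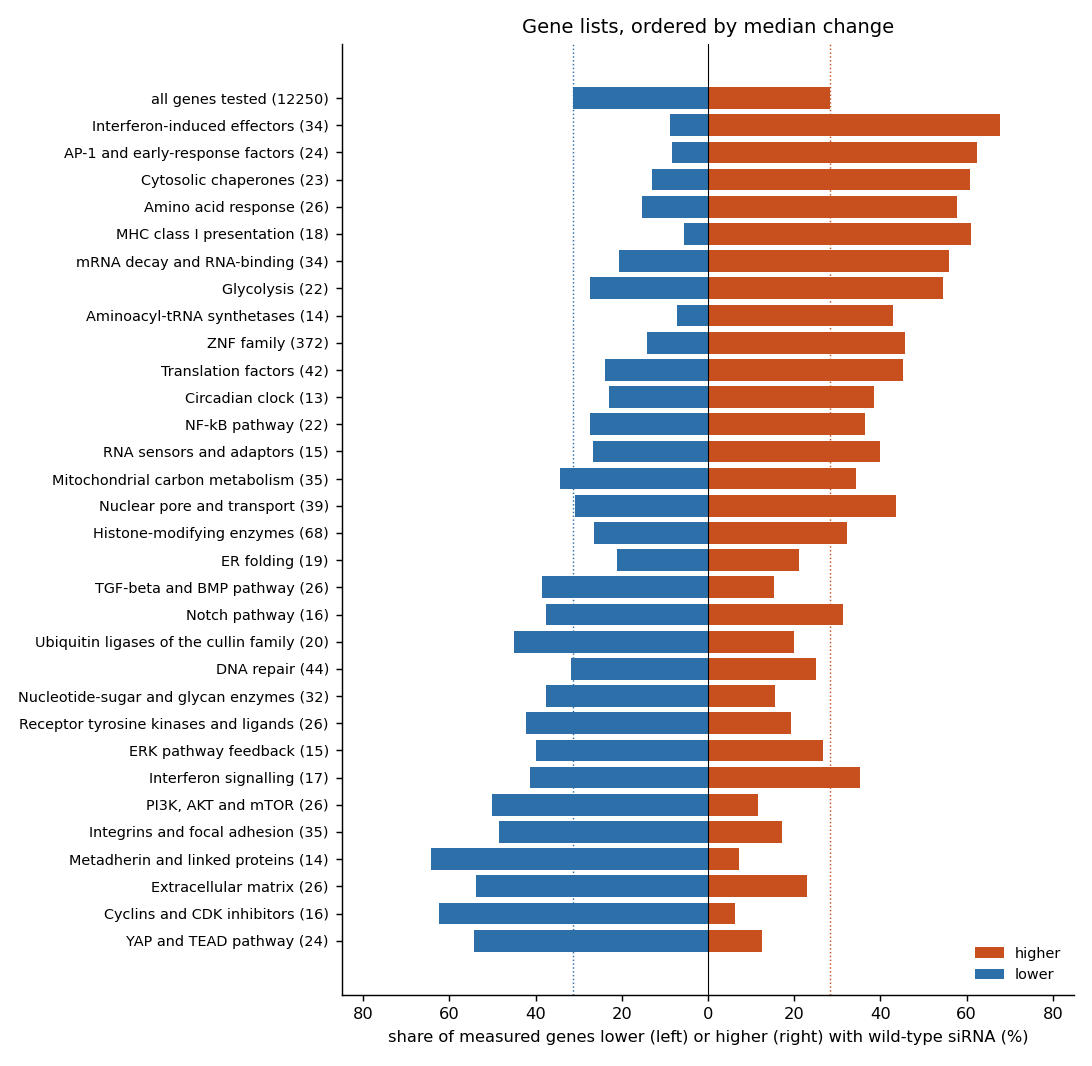
Share of measured genes (number in parentheses) of each list drawn that were higher (orange, right) or lower (blue, left) with the wild-type siRNA, ordered by median change. The small RNA and histone families are not drawn. Dotted lines mark the shares over all 12250 genes (28.3% higher, 31.3% lower); interferon-induced effectors (23 of 34 higher) stand at the upper end and YAP and TEAD genes (13 of 24 lower) at the lower end.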

How the data were processed

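The main table holds log2 values that the authors deposited for each array; they differ from quantile-normalized log2 signal without background subtraction by a median of 0.078, and how they were made is not given in the sources used here. A further deposited table gives, per the file headers, each probe's average signal (an intensity) beside its detection p-value. In it the knockdown rows stand in another order than the probe names; all 47231 were matched to the log2 table by their ranks, which was used for detection and for alternatives that start from signal. The probe identity of every siRNA value thus rests on the log2 table. Across probes the siRNA arrays followed the controls there (rank correlations of 0.864 to 0.892) and did not under the order of the signal table (-0.0028 to 0.0027). The submitters' processing notes list R 3.1.0 without a role.

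The 22446 probes with a detection p under 0.05 on 2 or more of the 5 arrays were kept. limma 3.58.1 under R 4.3.3 fitted 8 arrays (2 control, 3 of each siRNA, one shared spread, intensity trend; 5 residual degrees of freedom), with Benjamini-Hochberg adjustment over all kept probes. Tested on simulated data with independent noise, few changed probes and no scaling step, the fit recovered the changes it was given. Such data cannot test the scaling, or a fit where most genes move. A gene is its kept probe with the highest mean. Symbols came from the platform annotation (30113 probes with 1 symbol, 8 with several, 17110 with none), of which 30074 were matched to RefSeq (GRCh38.p14) for gene type and span. Genes named in the text are MTDH, the 15 top rises and the 15 top falls among called genes detected on all 5 arrays whose groups do not overlap, the 8 largest bounds each way, up to 4 members per list by adjusted p, and members needed to describe a role. Members and lists were chosen with earlier results of these data known, so lists carry no test and are read against the shares over all genes. Genes without a kept probe were not analysed here. No slide or scan date was available to test as a batch. The promoter motif was taken in this short form after a longer form had been searched. The result of 1 gene list is not reported here.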

Additional observations from a re-analysis of the deposited data

How the results depend on the processing

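With 2 controls, no value has a check on the spread of the control group beyond their difference, and dim genes are compressed by background. Of 15 alternative settings, several changed counts. The total of 7292 genes was between 6111 and 7079 when 1 array was left out; the lowest value came without control replicate 1. After background correction and scaling to the array median, an alternative added after seeing the data, 1589 genes were higher, and 423 were higher and 1356 lower by at least 2-fold. With neqc 698 genes were at least 2-fold higher and 619 at least 2-fold lower. RARS1 turned to -0.0723 after background correction and median scaling. With the dimmest probe of each gene CLOCK turned to 0.17, PER2 to -0.0412, LAMB3 to -0.19 and CTBP2 to 0.13. For these last 4 the probes disagree, and the cause was not tested. Same-numbered arrays did not deviate together (correlations of -0.037 to 0.075), so the numbers are not read as pairs; a fit with the replicate block called 7133 genes. Of the named results 18 kept their sign but missed the threshold in at least 1 setting, FGF18, IRF3, HLA-E, HLA-B and TSC1 among them. MTDH stayed lower and past the threshold in every setting run. The fall of long genes kept its sign at 200 to 400 kb, at a median of -0.56 with neqc, -0.38 with median scaling and -0.78 with background correction and median scaling, against 0.10, 0.07 and -0.12 under 5 kb.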

Other observations

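Probes of 1 gene did not always move together. At 200 genes a probe was called higher and another lower, and at 10 of them both by at least 1.5-fold. The largest such pair, chosen after its values were seen, was PPA2, a mitochondrial pyrophosphatase, with probes at 0.91 and -1.58. ZMAT3, a p53 target that binds RNA, had probes at 0.89 and -1.10, and ALYREF, an mRNA export factor, at 1.44 and -0.60. SRPK2, a kinase of splicing factors, had probes at 0.80 and -0.83, so its place among risen long genes depends on the probe. Of 266 long noncoding RNAs 60 were higher and 44 lower, and of 54 microRNA genes 9 were higher and 8 lower, with medians of 0.05 and -0.03.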
